A study of Mus musculus with 48 samples.

Results

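The 10 genes described here are CC chemokines of the mouse: Ccl2, Ccl3, Ccl4, Ccl5, Ccl6, Ccl7, Ccl8, Ccl9, Ccl11 and Ccl12. They were taken by name from the 32544 rows of the count table, where all 10 were found, and all 10 passed the low-count filter of the paired, control-limb and immobilized-limb fits on all usable libraries. The tissue is the metaphysis of the tibia, the flared end of the shaft, taken from 19-week-old male mice. They belong to 8 inbred strains. CAST/EiJ, PWK/PhJ and WSB/EiJ are wild-derived, A/J, 129S1/SvImJ and C57BL/6J are classical strains, and NZO/HlLtJ and NOD/ShiLtJ are used as models of obesity and of autoimmune diabetes. In every mouse the left hindlimb had been cast for 3 weeks and the uncast right limb was the control, so side and cast cannot be told apart. The 48 libraries form 16 groups of 3 mice (8 strains, 2 limbs). The series compares the effect of disuse on bone across genetic backgrounds.

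Chemokines are small secreted proteins that direct the movement of leukocytes through receptors on the target cell. CC chemokines, named for their pair of adjacent cysteines, chiefly recruit monocytes, eosinophils and T cells. In bone they are known from monocytes and macrophages, stromal cells and osteoclasts, the bone-resorbing cells that arise from monocyte precursors. Ccl2, Ccl7, Ccl8 and Ccl12 encode the monocyte chemoattractant proteins, and Ccr2 encodes the main receptor for Ccl2, Ccl7 and Ccl12. Ccl11 encodes eotaxin, the ligand of Ccr3. Ccl3 and Ccl4 encode macrophage inflammatory proteins, and Ccl3 signals through Ccr1 among other receptors. Ccl6 and Ccl9 are rodent ligands of Ccr1, and Ccl5 (RANTES) binds Ccr1 and Ccr3 among others.

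All 10 genes lie on mouse chromosome 11 (GRCm38, GENCODE M21). Ccl2 (chr11:82035571-82037453), Ccl7 (chr11:82045712-82047525), Ccl11 (chr11:82057823-82062955), Ccl12 (chr11:82101845-82103400) and Ccl8 (chr11:82115185-82116799) follow one another on the plus strand. Ccl5 (chr11:83525778-83530518), Ccl9 (chr11:83572919-83578636), Ccl6 (chr11:83587882-83593087) and Ccl3 (chr11:83647844-83649355) lie on the minus strand, and Ccl4 (chr11:83662584-83664683) on the plus strand beside Ccl3. No stretch of 50 bases is shared between the transcripts of any 2 members. Ccl9 shares 59 of its 2996 such stretches (1.97%) with transcripts of genes outside the group. Ccl2 overlaps Gm17268 and Ccl6 overlaps E230016K23Rik, each on the opposite strand. Whether counting used strand is not given in the sources used here, so reads of these pairs may not be separated.

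The promoter windows of Ccl8 and Ccl12 are shown because these neighbours rose together in the cast limb, and that of Ccl9 because it is the member with the most motif matches. Each runs from 250 bases before the annotated start to 50 after it, is written 5′ to 3′ on the gene's strand, and comes from RefSeq (GRCm38.p6), whose table holds windows for 5 of the 10 members. Capitals mark motif matches.
Ccl12, chr11:82101595-82101894, plus strand: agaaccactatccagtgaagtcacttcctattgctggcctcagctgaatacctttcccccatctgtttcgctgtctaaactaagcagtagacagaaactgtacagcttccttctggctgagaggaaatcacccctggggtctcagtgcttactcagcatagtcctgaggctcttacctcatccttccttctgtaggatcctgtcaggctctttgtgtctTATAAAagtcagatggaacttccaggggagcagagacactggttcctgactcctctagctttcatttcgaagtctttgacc
Ccl8, chr11:82114935-82115234, plus strand: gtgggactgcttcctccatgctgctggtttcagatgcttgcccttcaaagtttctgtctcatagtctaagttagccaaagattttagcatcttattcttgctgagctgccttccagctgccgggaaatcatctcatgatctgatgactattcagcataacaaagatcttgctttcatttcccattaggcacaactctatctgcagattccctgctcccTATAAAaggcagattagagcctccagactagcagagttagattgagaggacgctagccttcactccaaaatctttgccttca
Ccl9, chr11:83578587-83578886, minus strand: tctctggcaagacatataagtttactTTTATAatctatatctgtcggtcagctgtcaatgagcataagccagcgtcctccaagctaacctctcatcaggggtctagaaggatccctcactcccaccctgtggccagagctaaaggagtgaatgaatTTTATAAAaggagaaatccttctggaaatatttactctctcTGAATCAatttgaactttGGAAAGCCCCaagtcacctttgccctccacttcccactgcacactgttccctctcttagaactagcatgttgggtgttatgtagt

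The search, on both strands, covered TATAAA, the AP-1 motif TGANTCA, an NF-kB consensus (by name only), the STAT motif TTCNNNGAA and an interferon response element (by name only). TATAAA begins 32 bases before the start in Ccl8 and 31 before it in Ccl12, in nearly the same place. It occurs in 13.6% of 32851 RefSeq promoter windows. In Ccl9 the 3 TATAAA matches, 2 of them overlapping on opposite strands, begin 224, 94 and 92 bases before the start. Ccl9 also holds an AP-1 match at 53 bases before the start (7.8% of all windows hold one) and an NF-kB match at 35 (8.5%). No STAT or interferon match was found in the 5 windows (8.3% and 3.4% of all windows hold one). The Ccl8 and Ccl12 windows are identical in 54.9% of 319 aligned columns, against 45.0% to 50.8% for the other 9 pairs, and their longest shared run is 11 bases, against 13 between Ccl6 and Ccl9. These matches describe letters in the windows and no binding was measured.

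Totals ranged from 5253408 to 14744056 counts in 46 libraries (median 7593532.5). A/J control libraries 2 and 5 held 2335 and 50 counts and were left out, which leaves 22 mice with both limbs and 1 A/J pair. Osteoblast markers (7 genes) summed to at least 3968 CPM in every paired library, CPM being read counts scaled to each library's size with TMM factors, and muscle markers (8 genes) ranged from 13.4 to 43120 CPM, so bone was present throughout and muscle in very unequal amounts. Fewer cells of a type and less RNA per cell cannot be told apart in these bulk samples.

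One control library stood apart in the chemokines. NZO/HlLtJ control 4 held the highest control level of 6 of the 10 genes: Ccl2, Ccl3, Ccl4, Ccl7, Ccl8 and Ccl12. Its Ccl2 level was 18.6 CPM, against 0.772 and 1.54 in the other 2 NZO/HlLtJ control libraries. Its Ccl7 level was 12.3 CPM, against 0.129 and 0.256, and its Ccl8 level was 45.1 CPM, against 3.47 and 0.897. The same library had the lowest erythroid marker sum of all 46 (298 CPM, against 2217 to 58070 in the others) and the lowest neutrophil sum (3336, against 7211 to 99490). Its T and NK cell sum (39.2) and its eosinophil, basophil and mast cell sum (84.4) were also the lowest. Its endothelial sum was the highest, at 577.5 CPM against 139.3 to 528.1 in the others. The stromal and fibrous marker sum was 11600 CPM, higher than 43 of the other 45 libraries. The osteoclast sum, 6711 CPM, was higher than 41 of them. PWK/PhJ immobilized 3 held the highest immobilized level of 4 genes, with Ccl2 at 5.63, Ccl7 at 13.97, Ccl8 at 133 and Ccl12 at 6.59 CPM. It had the highest stromal and fibrous sum of all libraries, 14210 CPM. Calls that rest on either library are given with and without it. The part of tissue composition in these levels was not tested.

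The genes differed widely in level. On the scale of median CPM per kilobase of exon over the 46 libraries, Ccl6 (51.4) and Ccl9 (30.9) were the most abundant, followed by Ccl8 (11.98) and Ccl5 (5.50). The other 6 lay between 0.592 (Ccl11) and 1.60 (Ccl3). Ccl6 and Ccl9 were counted 38980 and 33280 times in all, and Ccl4, the least counted, 360 times. Values for the low genes thus rest on few reads, and intervals or floors below cover counting error only.

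**Figure D1:**
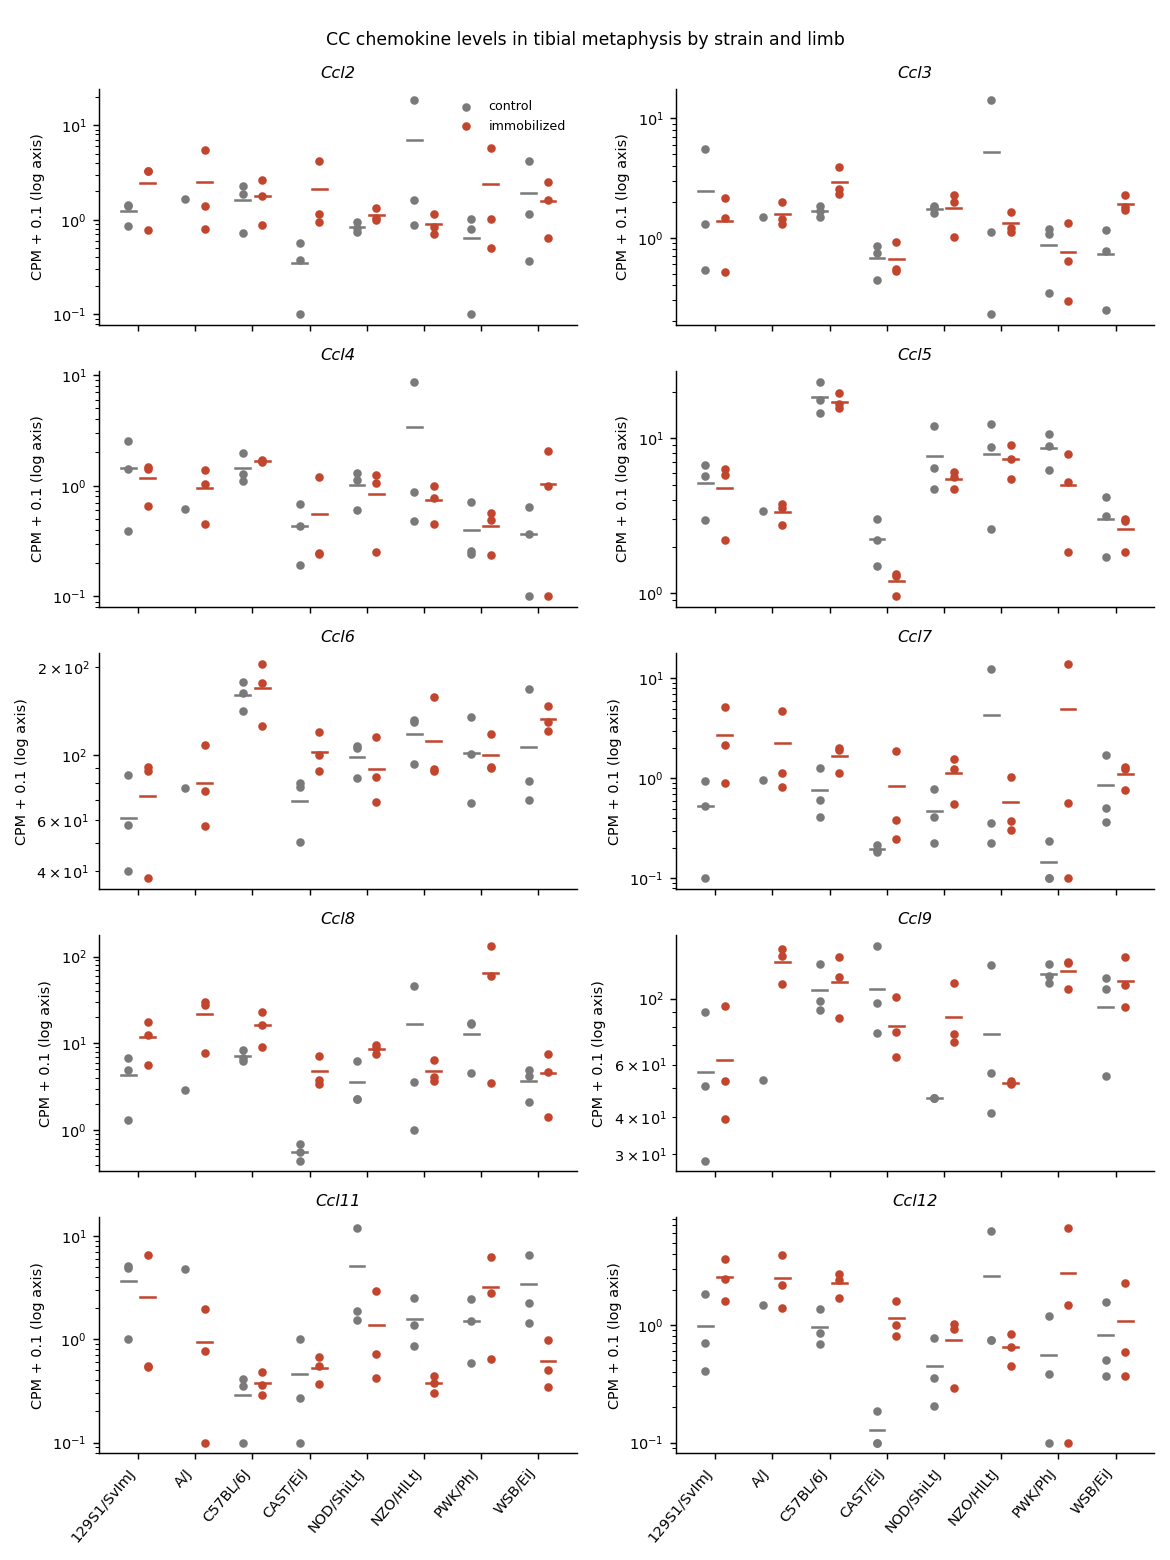
TMM-scaled CPM plus 0.1 (log axis) of each chemokine in every usable library, by strain, with control limbs in grey and immobilized limbs in red; bars are group means where a group has over 1 library. Ccl6 and Ccl9 lie between 28.4 and 205.6 CPM throughout, Ccl5 is highest in C57BL/6J, and NZO/HlLtJ control 4 stands above the other controls for Ccl2, Ccl3, Ccl4, Ccl7, Ccl8 and Ccl12.

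Among the monocyte chemoattractant genes, Ccl7, Ccl8 and Ccl12 rose in the immobilized limb and Ccl2 did not pass the test. Averaged over the 8 strains, these 3 were the members that passed a false discovery rate (FDR) of 0.05 in edgeR's quasi-likelihood test with mouse as a block. No member fell at that threshold. At an unadjusted p under 0.05, Ccl9 was also higher (p 0.0154 in edgeR) and Ccl11 lower (p 0.00819). Of all 16882 genes tested, 1255 (7.43%) passed, and 773 (4.58%) were higher. The median log2 change of the members was 0.17, beside 0.01 over all genes.

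Ccl7, the gene of monocyte chemoattractant protein 3, ranged from 0 to 12.3 CPM in the 22 control limbs (median 0.287) and from 0 to 13.97 in their immobilized partners (median 1.04). The ranges overlapped almost fully, but Ccl7 was higher in the immobilized limb in 18 of 22 mice. Its mean log2 change was 1.56 ± 0.39 (SE derived from the F test, edgeR FDR 0.025). In 129S1/SvImJ it went from 0.846, 0.433 and 0 CPM to 5.04, 2.04 and 0.80 in mice 2, 3 and 6. In C57BL/6J it went from 0.313, 0.504 and 1.17 to 1.04, 1.83 and 1.93 CPM in mice 1, 4 and 6. All 6 of these mice were higher on the cast side. The PWK/PhJ estimate, 5.61 ± 1.46, enters the mean but stands on 1 control count in 3 libraries against 75 immobilized counts, 72 of them in mouse 3. As a ratio this is 86.1, with an exact 95% counting interval from 15.0 to 3440. NZO/HlLtJ mouse 4 moved the other way, from 12.3 to 0.944 CPM.

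Ccl8, the gene of monocyte chemoattractant protein 2, was the most abundant of this group. Its control levels ran from 0.347 to 45.1 CPM (median 4.23) and its immobilized levels from 1.34 to 133 (median 7.40). It was higher in the immobilized limb in 19 of 22 mice, and the 3 exceptions were PWK/PhJ 6, NZO/HlLtJ 4 and WSB/EiJ 4. The mean log2 change was 1.28 ± 0.36 (edgeR FDR 0.0415). In CAST/EiJ mice 2, 3 and 4 the level went from 0.347, 0.459 and 0.590 CPM to 7.09, 3.27 and 3.73, and the limbs did not overlap. In NOD/ShiLtJ mice 4, 5 and 6 it went from 6.13, 2.16 and 2.16 to 9.38, 7.39 and 8.78 CPM, again without overlap. Neither strain's change passed in edgeR (FDR 0.0616 in CAST/EiJ and 0.336 in NOD/ShiLtJ). In PWK/PhJ mice 3 and 4 it rose from 17.1 to 133 and from 4.40 to 59.6 CPM, while mouse 6 went from 16.7 to 3.40.

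Ccl12, the gene of monocyte chemoattractant protein 5, ranged from 0 to 6.25 CPM in control limbs (median 0.594) and from 0 to 6.59 in immobilized limbs (median 1.16). It was higher in the immobilized limb in 18 of 22 mice, by a mean log2 change of 1.24 ± 0.33 (edgeR FDR 0.0313). C57BL/6J went from 1.253, 0.755 and 0.584 CPM to 1.61, 2.61 and 2.31 in mice 1, 4 and 6. CAST/EiJ controls held 0, 0 and 1 count, and the cast limbs of the same mice held 11, 5 and 6. This was 1 of only 2 changes within a single strain that passed: log2 4.46 ± 1.14, edgeR FDR 0.0154, beside 13.9% of all genes in CAST/EiJ. The ratio of counts was 32.8, with an exact 95% interval from 5.30 to 1350, so the size is poorly fixed. The call was lost in 3 of 22 fits with 1 mouse left out (highest FDR 0.11, without CAST/EiJ 2).

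Ccl2, the gene of monocyte chemoattractant protein 1, had control levels from 0 to 18.6 CPM (median 0.812) and immobilized levels from 0.408 to 5.63 (median 0.999). It was higher on the cast side in 14 of 22 mice, with a mean log2 change of 0.40 ± 0.40 (edgeR FDR 0.624). Its arithmetic mean went from 1.84 to 1.63 CPM, and the highest control, NZO/HlLtJ mouse 4, went from 18.6 to 0.607. In CAST/EiJ all 3 immobilized limbs (0.853 to 4.09 CPM) lay above all 3 controls (0 to 0.463), but that strain's change did not pass (FDR 0.0894).

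The 3 calls depend on single mice. Without PWK/PhJ 3 none of them passed: Ccl7 was 1.04 ± 0.38 (FDR 0.122), Ccl8 1.16 ± 0.37 (FDR 0.0833) and Ccl12 1.19 ± 0.36 (FDR 0.066). Without CAST/EiJ 2 the FDRs were 0.0553, 0.0642 and 0.0506. Without NZO/HlLtJ 4 the changes were larger, at 1.81, 1.45 and 1.36, with FDRs of 0.00531, 0.0124 and 0.0124. Over all 22 fits with 1 mouse left out, the call held in 20 for Ccl7, 16 for Ccl12 and 4 for Ccl8, and the lowest log2 changes were 1.04, 1.15 and 1.12. With group means in place of the mouse block, the FDRs were 0.126 for Ccl7, 0.0932 for Ccl12 and 0.0598 for Ccl8.

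**Figure D2:**
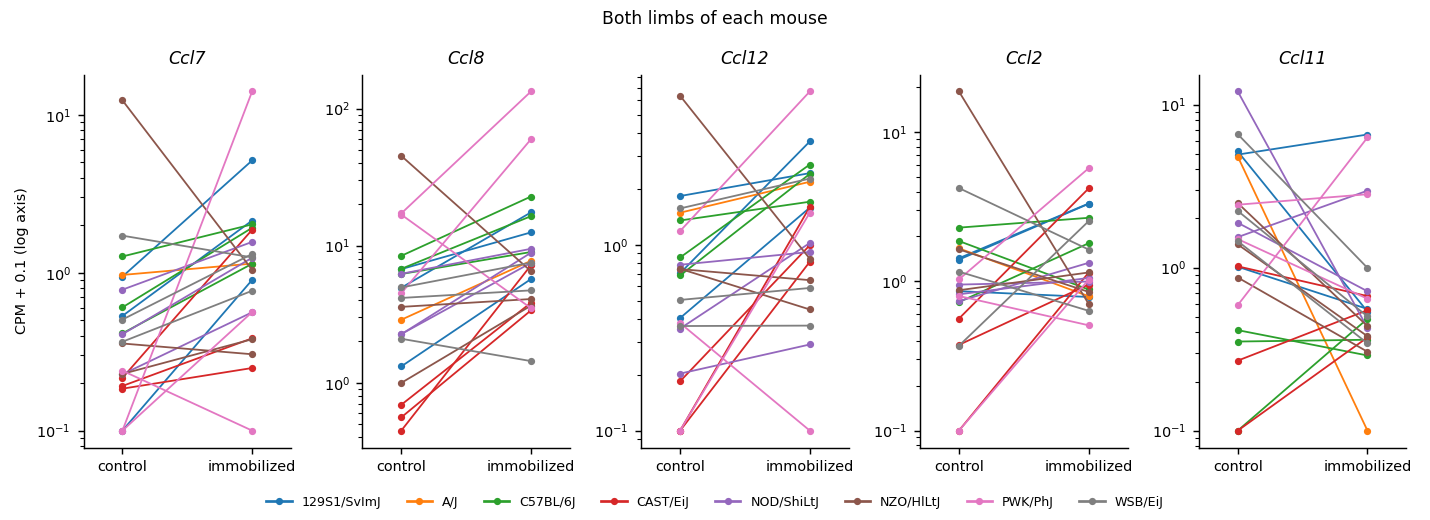
TMM-scaled CPM plus 0.1 (log axis) in the control and immobilized limb of each of 22 mice, joined by a line and coloured by strain. Ccl7, Ccl8 and Ccl12 were higher on the cast side in 18, 19 and 18 mice, with NZO/HlLtJ 4 falling in all 3; Ccl11 was lower in 14.

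The marker lists give the setting of these changes. Of the 15 monocyte and macrophage markers, Vsig4 rose and Siglec1 fell, and the other 13 did not pass. Their summed level was 794 to 1760 CPM in control limbs and 815 to 1863 in immobilized limbs. Marco was at 0 in 4 control and 4 immobilized libraries, and the 14 others were detected in every usable library. Of the 8 stromal and fibrous markers, 4 rose (Pdgfra, Dcn, Lum and Col3a1), with sums of 2052 to 11600 CPM in control and 2934 to 14210 in immobilized limbs (medians 3462 and 4894). The highest Ccl7, Ccl8 and Ccl12 levels were in PWK/PhJ immobilized 3, which had the highest stromal sum. 129S1/SvImJ immobilized 3, with the next highest sum (11749), held 2.04 CPM of Ccl7, 12.4 of Ccl8 and 2.33 of Ccl12. PWK/PhJ immobilized 4, with a sum of 5342, held 0.463, 59.6 and 1.39 CPM. The medians over all 24 immobilized libraries were 1.04, 7.53 and 1.345 CPM. The part of stromal content in the chemokine changes was not tested. Muscle markers fell in 7 of 8 genes, from a median sum of 835 to 546 CPM. With a muscle score as a covariate the log2 changes were 2.34 ± 0.57 for Ccl7, 1.97 ± 0.51 for Ccl8 and 2.01 ± 0.47 for Ccl12, and all 3 passed. Because the markers in the score fell with the cast, score and limb are not independent, and these values are no separate check. Osteoblast markers rose in 5 of 7 genes and B cell markers fell in 4 of 8. In edgeR none of 10 neutrophil, 12 T and NK cell, 4 endothelial or 6 erythroid markers passed, with 1, 2, 0 and 0 of them at an unadjusted p under 0.05.

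**Figure D3:**
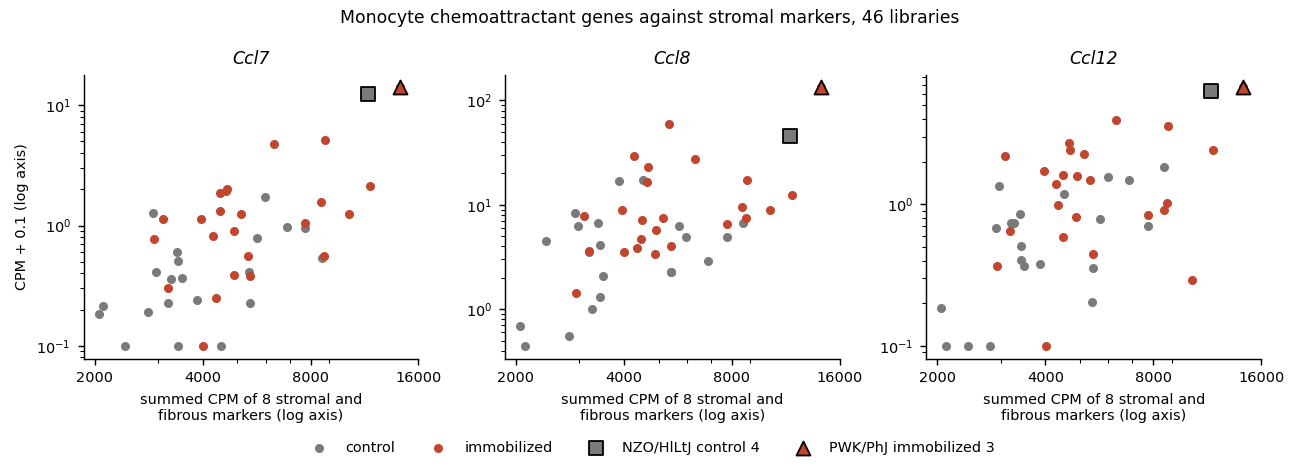
Ccl7, Ccl8 and Ccl12 (CPM plus 0.1, log axis) against the summed CPM of 8 stromal and fibrous markers (log axis) in 46 libraries, with control limbs in grey and immobilized limbs in red. NZO/HlLtJ control 4 (square, sum 11600) and PWK/PhJ immobilized 3 (triangle, sum 14210) lie at the upper right of each panel.

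Ccl11, the gene of eotaxin, had the lowest mean change of the 10 but did not pass. Control levels ran from 0 to 11.9 CPM (median 1.37) and immobilized levels from 0 to 6.45 (median 0.419). It was lower in the immobilized limb in 14 of 22 mice, including all 3 of NZO/HlLtJ and all 3 of WSB/EiJ. In WSB/EiJ mice 2, 4 and 5 it went from 1.35, 2.13 and 6.47 CPM to 0.243, 0.401 and 0.895. In NZO/HlLtJ mice 4, 5 and 6 it went from 2.38, 1.29 and 0.769 to 0.337, 0.279 and 0.205 CPM. PWK/PhJ mouse 4 went the other way, from 0.489 to 6.18 CPM. The mean log2 change was -1.76 ± 0.59 (edgeR FDR 0.0775). DESeq2 called it (adjusted p 0.0136). The A/J estimate of -8.26 comes from 1 mouse that went from 27 counts to 0. Without it the mean was -0.84 ± 0.46 (FDR 0.226). With the muscle score as a covariate it was -0.47 ± 0.73. None of 9 markers of eosinophils, basophils and mast cells passed in edgeR or at an unadjusted p under 0.05, and their sums were 84.4 to 2653 CPM in control and 285 to 2886 in immobilized limbs.

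Ccl9, which osteoclasts are known to make, ranged from 28.4 to 150.5 CPM in control limbs (median 90.8) and from 39.2 to 138.8 in immobilized limbs (median 94.0). It was higher on the cast side in 15 of 22 mice, and its mean log2 change of 0.27 ± 0.10 did not pass (edgeR FDR 0.11). Without NZO/HlLtJ 4 the change was 0.31 ± 0.08 (FDR 0.0195). Without the A/J pair it was 0.11 ± 0.10 (FDR 0.461). In NOD/ShiLtJ the 3 controls lay at 46.2, 46.3 and 46.3 CPM and the 3 immobilized limbs at 112, 76.2 and 71.4, with no overlap. This strain's change passed at 0.87 ± 0.26 (edgeR FDR 0.0433), beside 8.33% of all genes in NOD/ShiLtJ, and held in 11 of 22 fits with 1 mouse left out (highest FDR 0.249, without NOD/ShiLtJ 4). Osteoclast markers rose in 5 of 8 genes over all strains, with median sums of 2111 CPM in control and 4381 in immobilized limbs. Their part in the Ccl9 levels was not tested.

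Ccl6 was close between limbs, at 40.1 to 178 CPM in control (median 89.3) and 37.7 to 206 in immobilized limbs (median 95.5). Its mean log2 change was 0.07 ± 0.12 (edgeR FDR 0.814), with 12 of 22 mice higher. Ccl3 ran from 0.128 to 14.3 CPM in control and from 0.194 to 3.85 in immobilized limbs, with a change of 0.08 ± 0.37 (FDR 0.986). Ccl4 ran from 0 to 8.63 and from 0 to 1.94 CPM, with a change of -0.05 ± 0.45 (FDR 1). The signs of the Ccl3 and Ccl4 changes turned when single mice were left out, so no direction is given. Ccl5 ran from 1.39 to 23.2 CPM in control (median 5.88) and from 0.853 to 19.5 in immobilized limbs (median 5.28). It was lower on the cast side in 15 of 22 mice, with a change of -0.30 ± 0.20 (FDR 0.382).

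**Figure D4:**
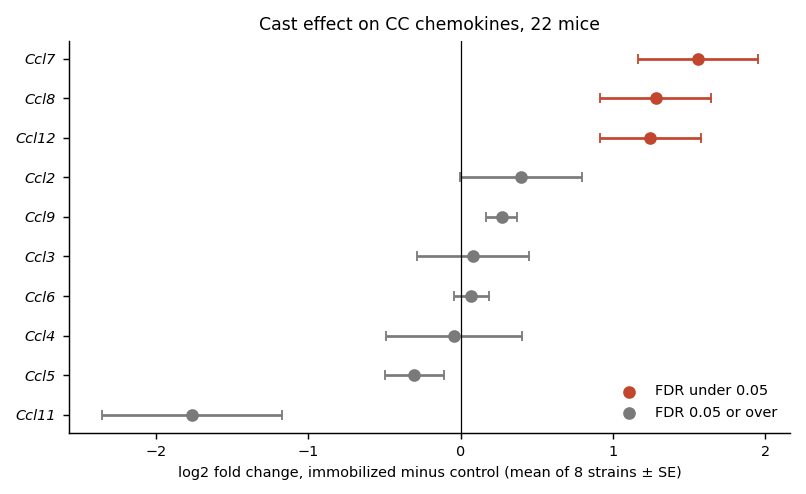
Mean log2 change of each chemokine, immobilized minus control, over 8 strains (22 mice), with bars of 1 SE derived from the F test; red points passed an FDR of 0.05. Ccl7, Ccl8 and Ccl12 lie between 1.24 and 1.56, and Ccl11 at -1.76 has the widest bar.

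Whether the cast effect differed among strains was tested with an interaction term. In edgeR no member passed, beside 422 genes (2.50%) of 16882. At an unadjusted p under 0.05 there were 3: Ccl9 (FDR 0.143), Ccl12 (FDR 0.162) and Ccl7 (FDR 0.167). DESeq2 called 2, Ccl9 and Ccl12. Without PWK/PhJ 6, Ccl7 passed in edgeR. The strain estimates for Ccl12 ran from -1.59 ± 0.77 in NZO/HlLtJ to 4.46 in CAST/EiJ. The NZO/HlLtJ estimate leans on mouse 4, whose Ccl12 went from 55 counts to 11. By log2 ratio of CPM plus 0.5, NZO/HlLtJ mice 4, 5 and 6 changed by -2.44, -0.43 and -0.13. The NZO/HlLtJ estimate without mouse 4 is not given. The estimates for Ccl9 ran from -0.39 ± 0.25 in CAST/EiJ to 1.38 ± 0.45 in A/J, a single mouse.

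Among 10 tested CC receptor genes 1 passed, beside 7.43% of all genes. This was Ccr1, the receptor of Ccl3, Ccl5, Ccl6, Ccl7 and Ccl9, higher by 0.35 ± 0.10 on the log2 scale (edgeR FDR 0.042). Its mean went from 94.5 to 108 CPM, with 13 of 22 mice higher. The Ccr1 call, like those of the other list genes, was not refitted with single mice left out. Ccr2, on monocytes the receptor of Ccl2, Ccl7 and Ccl12, was at a mean of 143 CPM in control and 147 in immobilized limbs (change 0.19 ± 0.10, FDR 0.283). Ccr3, the eotaxin receptor, changed by 0.29 ± 0.15 (FDR 0.239). The atypical receptors Ackr1 and Ackr2, which bind chemokines without classical signalling, changed by -0.16 ± 0.14 (FDR 0.553) and 0.27 ± 0.14 (FDR 0.267). The differences between ligand and receptor changes were not tested.

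Of the other CC chemokines, 10 of 14 could be tested and none passed in edgeR or at an unadjusted p under 0.05 (median log2 change -0.09). None of 15 CXC and other chemokines passed, with 3 at an unadjusted p under 0.05 (median -0.18). Of the 4 atypical receptors none passed and 1 had an unadjusted p under 0.05. Among 19 genes of NF-kB and cytokine signalling, a list of inducers and inhibitors, 1 rose and 1 fell, beside 7.43% of all genes. At an unadjusted p under 0.05 there were 5. The gene that rose was Nfkbia (0.22 ± 0.06, FDR 0.0249), which encodes an inhibitor of NF-kB.

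Strain differences in control limbs were tested in 22 libraries. Of the 10 chemokines 6 passed the F test over strains: Ccl5 (FDR 0.00304), Ccl7 (0.0274), Ccl8 (0.0289), Ccl11 (0.0332), Ccl2 (0.0399) and Ccl6 (0.0399). This is set against 40.6% of 16493 genes. In immobilized limbs 6 of 10 passed, against 50.3% of 15478 genes: Ccl5 (FDR 1.2e-05), Ccl8 (0.0019), Ccl9 (0.00214), Ccl3 (0.0226), Ccl6 (0.0301) and Ccl11 (0.0441). With 10 members, no excess over these shares is read from the counts. Over fits with 1 library left out, the control call held in 22 of 22 for Ccl5, 18 for Ccl8 and 16 for Ccl11. It held in only 8 for Ccl6 and 7 for Ccl2, and in 15 of 21 for Ccl7. The immobilized call held in 24 of 24 fits for Ccl5, Ccl8 and Ccl9, 22 for Ccl3 and Ccl6, and 9 for Ccl11. Reads of all strains were assigned against mm10, which derives from C57BL/6J, and the part of that in strain levels was not tested.

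Ccl5, which draws T cells and monocytes, had the lowest FDR of the members in both limbs. C57BL/6J controls held 23.2, 17.6 and 14.5 CPM, above every control of the other strains (1.39 to 12.4). The order of control means was C57BL/6J (18.4 ± 4.41 CPM, SD, n = 3), PWK/PhJ (8.54 ± 2.26), NZO/HlLtJ (7.85 ± 4.98), NOD/ShiLtJ (7.64 ± 3.81), 129S1/SvImJ (5.05 ± 1.94), A/J (3.30, n = 1), WSB/EiJ (2.91 ± 1.22) and CAST/EiJ (2.15 ± 0.774). Past C57BL/6J, each strain's range overlapped that of the next. Against the mean of the other 7 strains, C57BL/6J was higher by 1.95 ± 0.34 on the log2 scale (edgeR FDR 0.00143) and CAST/EiJ lower by -1.57 ± 0.45 (FDR 0.019). The background in these contrasts was 8.83% of genes for C57BL/6J and 22.7% for CAST/EiJ.

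The cast limbs repeated this order at both ends for Ccl5. C57BL/6J held 16.5, 15.5 and 19.5 CPM and CAST/EiJ 1.23, 0.853 and 1.19, and neither overlapped any other strain. C57BL/6J was 2.24 ± 0.25 higher (FDR 2.34e-06, background 7.75% of genes) and CAST/EiJ -2.27 ± 0.39 lower (FDR 0.000271, background 18.6%). These are other libraries of the same mice. The C57BL/6J calls held without any single library, as did the CAST/EiJ call in cast limbs, while the CAST/EiJ call in control limbs was lost in 2 of 22 fits (highest FDR 0.108, without CAST/EiJ 2). T and NK cell markers summed to 178 to 194 CPM in C57BL/6J controls and 92.2 to 119 in CAST/EiJ controls, within 39.2 to 245 over control libraries. In cast limbs the sums were 139 to 178 in C57BL/6J and 65.7 to 101 in CAST/EiJ, within 53.7 to 226. Mean sums in controls were 188 in C57BL/6J, 164 in NOD/ShiLtJ, 158 in WSB/EiJ and 141 in NZO/HlLtJ. They were 109 in 129S1/SvImJ, 105 in CAST/EiJ, 101 in PWK/PhJ and 90.7 in A/J (n = 1). In cast limbs they were 165 in NZO/HlLtJ, 156.5 in A/J, 153.7 in WSB/EiJ and 152.5 in C57BL/6J. There NOD/ShiLtJ had 113.7, 129S1/SvImJ 99.85, CAST/EiJ 82.9 and PWK/PhJ 65.97. Neither order was that of the Ccl5 means. The part of these markers in the Ccl5 levels was not tested.

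Ccl6 was also highest in C57BL/6J. Its controls held 163, 142 and 178 CPM, a mean of 161 ± 18.3, and the lowest strain, 129S1/SvImJ, had a mean of 61.0 ± 22.8. C57BL/6J was 0.87 ± 0.24 above the mean of the others in control limbs (edgeR FDR 0.0295) and 0.81 ± 0.22 in cast limbs (FDR 0.0256). Without C57BL/6J 6 these FDRs were 0.162 and 0.242. WSB/EiJ control 2, at 168.5 CPM, lay inside the C57BL/6J range. Monocyte and macrophage markers also summed highest in C57BL/6J, at 1561 to 1760 CPM in its controls, against 794 to 1512 in those of the other strains, and at 1543 to 1863 in its cast limbs, against 815 to 1723. Their part in the Ccl3, Ccl5 and Ccl6 levels was not tested. Ccl3 in C57BL/6J cast limbs (2.46, 2.22 and 3.85 CPM) was 1.28 ± 0.34 above the mean of the others (FDR 0.0243, and 0.271 without C57BL/6J 6). Its lowest value there, on 17 counts, was close to the 2.20 CPM of NOD/ShiLtJ 4 and the 2.17 of WSB/EiJ 5.

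CAST/EiJ controls were lowest for Ccl8 and Ccl12. For Ccl8 they held 0.347, 0.459 and 0.590 CPM, below every other control library (0.897 to 45.1). The difference from the other 7 strains was -3.57 ± 1.004 (edgeR FDR 0.0175), and it was lost in 3 of 22 fits with 1 library left out (highest FDR 0.0802, without CAST/EiJ 2). For Ccl12 the 1 CAST/EiJ count stands against 141 counts in the other control libraries, which were 31.6 times as high per read (exact 95% counting interval 5.58 to 1260). NZO/HlLtJ control 4 held 55 of those counts, and without it the ratio was 20.6 (3.59 to 822). The tested Ccl12 difference, from the mean of the other 7 strains, was -4.15 ± 1.29 (edgeR FDR 0.0293). The Ccl12 call was lost in 3 of 22 fits with 1 library left out (highest FDR 0.11, without CAST/EiJ 2). In cast limbs Ccl8 in CAST/EiJ was 3.27 to 7.09 CPM, inside the range of NZO/HlLtJ and WSB/EiJ (1.34 to 7.42).

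NZO/HlLtJ controls passed as higher for Ccl2, Ccl4, Ccl7, Ccl8 and Ccl12, by 2.23 to 3.63 on the log2 scale (edgeR FDRs 0.00946 to 0.0481, background 4.61% of genes). All 5 calls rest on control 4. Without that library the differences were 0.40 for Ccl2, 0.00331 for Ccl4, -0.68 for Ccl7, -0.64 for Ccl8 and 0.50 for Ccl12, with FDRs from 0.633 to 1. The F test over strains was then lost for Ccl7 (FDR 0.0853) and Ccl2 (FDR 0.214), while Ccl5 and Ccl8 passed (FDRs 0.000289 and 0.00243).

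PWK/PhJ cast limbs were highest for Ccl8, at 133, 59.6 and 3.40 CPM. The difference from the other 7 strains was 2.90 ± 0.47 (edgeR FDR 0.000129, background 18.7% of genes), and 1.85 without mouse 3 (FDR 0.025). Mouse 6 lay inside the range of the other strains, so the group as a whole overlapped them. Ccl11 was also higher in PWK/PhJ cast limbs (2.72, 6.18 and 0.544 CPM), by 2.25 ± 0.67 (FDR 0.0233, and 0.429 without mouse 4). In control limbs Ccl11 was lowest in C57BL/6J (0.313, 0.252 and 0 CPM) and highest in NOD/ShiLtJ (11.9, 1.78 and 1.44), and no strain's range was separate from the next in order.

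Ccl9 levels in cast limbs passed for 2 strains against the others. A/J held the highest mean, 133 ± 18.1 CPM, and was 0.61 ± 0.19 above the others (edgeR FDR 0.0349, background 13.7% of genes, and 0.14 without A/J 2). NZO/HlLtJ held the lowest, with 51.3, 52.6 and 51.8 CPM, and was -0.92 ± 0.21 below them (FDR 0.00865, background 6.81%, and 0.0622 without NZO/HlLtJ 5). Neighbouring strains in the order overlapped throughout, from A/J through PWK/PhJ, WSB/EiJ, C57BL/6J, NOD/ShiLtJ, CAST/EiJ and 129S1/SvImJ to NZO/HlLtJ. In control limbs the means had PWK/PhJ (121 ± 9.21 CPM) at the top and NOD/ShiLtJ (46.3 ± 0.0998) at the bottom, and the F test did not pass (FDR 0.093). Without NZO/HlLtJ control 4, which held 129.7 CPM against 56.2 and 41.1 in its group, it passed (FDR 0.0151).

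**Figure D5:**
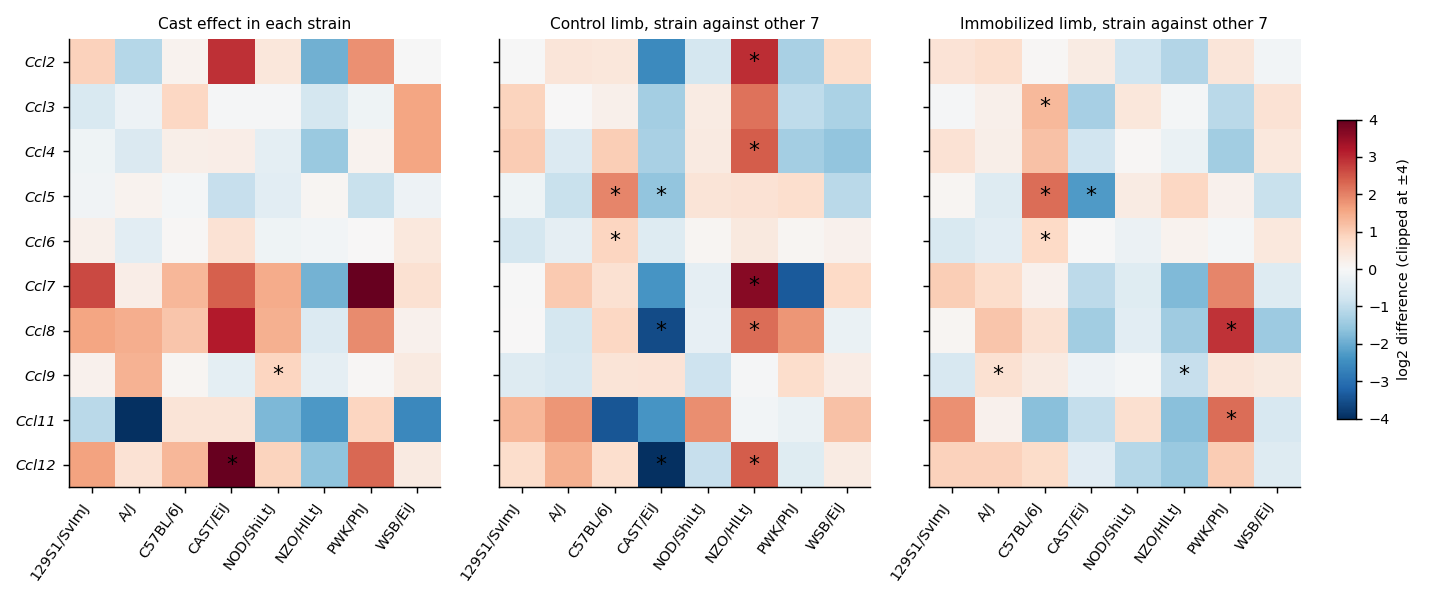
Log2 differences of each chemokine by strain, as the cast effect, the control limb against the other 7 strains and the immobilized limb against the other 7, on a colour scale clipped at 4 in either direction; asterisks mark FDR under 0.05. The cast effect has 2 asterisks (Ccl12 in CAST/EiJ, Ccl9 in NOD/ShiLtJ), and the 5 in the NZO/HlLtJ control column rest on 1 library.

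Patterns over the 46 libraries tied some members to each other. On log2 CPM, with 16911 other genes compared, Ccl2 was most like Ccl7 (Pearson r 0.808) and Akr1b8 (0.793), and Ccl12 most like Ccl7 (0.805) and Cpne8 (0.784). Ccl3 was most like its neighbour Ccl4 (0.737) and then Ms4a7 (0.598), and Ccl4 like Ccl3 and Cndp2 (0.644). Ccl7 was most like S100a4 (0.842) and Vim (0.835). Without NZO/HlLtJ control 4 and PWK/PhJ immobilized 3, Ccl2 with Ccl7 was 0.731, Ccl12 with Ccl7 0.739, Ccl3 with Ccl4 0.655 and Ccl7 with Vim 0.739. Ccl2 with Akr1b8 was then 0.70, Ccl7 with S100a4 0.791 and Ccl12 with Cpne8 0.755. Ccl3 with Ms4a7 was 0.568 and Ccl4 with Cndp2 0.627.

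Outside the monocyte chemoattractants, Ccl5 was most like Oas3 (0.837) and Oas2 (0.833), both interferon-induced genes, and Ccl6 like Cd300a (0.803) and Clec7a (0.729), receptors of myeloid cells. Ccl11 was most like Inmt (0.81) and Abca8b (0.802), Ccl9 like Fam105a (0.819) and Nipsnap3b (0.782), and Ccl8 like Emc3 (0.804) and Trappc3 (0.795). These correlations describe libraries that share strains, mice and depth. The list genes with the largest strain F in control limbs were Cxcl13 (16.9, FDR 4.5e-05) and Cxcl9 (13.5, FDR 0.000161). Cxcl9, an interferon-induced chemokine, ranged from 1.77 to 54.3 CPM, and Cxcl13, which draws B cells, from 0.337 to 28.5 CPM.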

How the data were processed

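Per the labels' protocols and the series design, stranded mRNA libraries of tibial metaphysis were read from both ends. Values are raw read counts by gene, whole numbers as the authors deposited them. Per the submitters' processing notes, featureCounts and DESeq2 were used with mm10. No aligner, annotation or strand setting is given in the sources used here.

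The main test was that of edgeR 4.0.16 (R 4.3.3), with filterByExpr, TMM scaling and no other normalization (robust quasi-likelihood F test, Benjamini-Hochberg FDR of 0.05 over all genes tested), and DESeq2 1.42.0 was an alternative. The paired fit (44 libraries) had mouse as a block and 1 limb effect for each strain. Mice are paired by design, since both limbs of each were sampled. Deviations from group means correlated between a mouse's limbs with a median r of 0.09 over 21 mice (from -0.26 to 0.55, over 0.1 in 10). Replicates are separate mice. A/J has 1 pair, whose spread is taken from the other strains. Each strain was compared with the mean of the other 7 in each limb, the contrast in immobilized limbs being added after the data were seen. CPM values were computed with TMM-scaled library sizes. The SE printed with an edgeR log2 change is the size of the change divided by the square root of F. It is derived from the test and is not a fitted standard error. Near a change of 0 it can be far off, as for Ccl2 in 129S1/SvImJ control limbs (-0.016 with an SE of 3.36). The scripts were tested on simulated data with no difference between mice, in which every changed gene had a higher mean count than Ccl7 or Ccl12. That test does not cover genes as low as these.

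Named genes are all 10 members, list genes past the FDR of 0.05 in the mean effect, 6 receptors, the 3 list genes with the largest strain F, and the 2 genes most like each member (log2 CPM, prior count of 2). Some genes that this rule names are not reported here. Lists also covered eosinophil, neutrophil, T and NK cell, B cell, endothelial and erythroid markers. The members and lists were chosen with earlier results of these data known. Alternatives were another scaling, DESeq2, no low-count filter, all 48 libraries, no block, a muscle score and each mouse left out. Promoters were read with Python 3.11.15 and aligned with Biopython 1.88.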

Additional observations from a re-analysis of the deposited data

How the results depend on the processing

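Scaling by relative log expression moved no count by over 1.5 times. The mean cast effect had 3 members called under it, 4 with DESeq2 (Ccl11 added), 2 with no filter on low counts (Ccl8 lost), and 3 with all 48 libraries or the muscle score. With no replicate block, in place of the pairing of limbs by mouse, 0 members and 0 member-strain pairs were called, with 940 genes. Genes called in the mean effect, 1255, became 730 with no filter and 721 with the muscle score. Member-strain pairs, 2, became 5 with DESeq2 and 1 with no filter. With the muscle score there were 2, Ccl12 and Ccl8 in CAST/EiJ. The interaction had 0 members in edgeR and 2 in DESeq2. With 1 mouse left out, members called in the mean effect ranged from 0 (without PWK/PhJ 3 or CAST/EiJ 2) to 4 (without NZO/HlLtJ 4) and genes from 756 (without NZO/HlLtJ 6) to 2803 (without A/J 1), with 775 without PWK/PhJ 3 and 1909 without NZO/HlLtJ 4. Member-strain pairs ranged from 0 (without CAST/EiJ 4) to 5 (without NZO/HlLtJ 4 or PWK/PhJ 6), and interaction calls from 0 to 1. Strain calls ranged from 1 (without CAST/EiJ 2 or 4) to 8 members in control limbs, and from 3 (without C57BL/6J 6) to 7 in immobilized limbs. Strain contrasts in control limbs ranged from 4 (without CAST/EiJ 4) to 12. The sign turned for Ccl3 with no block (-0.12) and for Ccl6 with the muscle score (-0.000284). Over mice left out, Ccl3 ranged from -0.0773 to 0.28 and Ccl4 from -0.19 to 0.13. The causes were not tested. Depth limits Ccl2, Ccl3, Ccl4, Ccl7, Ccl11 and Ccl12, with 360 to 646 counts each over 46 libraries.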
